A study of Mus musculus with 14 samples.

Results

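Loci with exactly 3 annotated poly(A) sites were examined in 3T3 cells, a mouse fibroblast line. Sites on 1 chromosome and strand were linked into a locus when neighbours lay within 2000 nt, and a locus was kept when each of its 3 ends had 30 or more reads over the 2 controls and the 4 actinomycin D libraries. This left 650 loci with 1950 ends, out of 1870 loci of exactly 3 ends, 17807 loci and 33590 ends in all. The ends of a locus were ordered along the transcribed strand, 5' to 3', and are called first, middle and last. The minimum sums treated libraries too: 34 of the 1950 ends, in 33 loci, reach it only with the 8 h library. At the minimum itself, 16 loci had a lowest end at exactly 30 reads and were kept, and 17 had one at 29 and were not. A locus on chromosome 2 (minus strand) lay just inside, with 11229, 1891 and 30 reads at its first, middle and last end, and one on chromosome 8 (minus strand) lay just outside, with 10320, 29 and 109.

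A poly(A) site is the position at which a pre-mRNA is cleaved and its poly(A) tail is added. Where a gene has several such sites in its last exon, use of an upstream site gives an mRNA with a short 3' UTR, and use of a downstream site gives a longer 3' UTR with more sequence that microRNAs and RNA-binding proteins can bind. Sites that lie very close together add hardly any sequence, and such clusters are common in mammals. Tandem sites have been studied for their effect on mRNA stability and on ribosome loading, which is the question the series' title poses.

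The series lists 14 samples, and 12 of them are used. They are 2P-Seq libraries, for which reverse transcription was primed in the poly(A) tail, so that a read marks the 3' end of an mRNA. Actinomycin D, which blocks transcription, was present at 10 µg/ml for 1, 2, 4 and 8 h, with 1 library at each time, and 2 untreated libraries served as controls. The other 6 libraries came from sucrose gradient fractions, where an mRNA lies further down the more ribosomes it carries. The 2 libraries made by 3P-Seq were not analysed here. Whether the 2 controls were separate cultures is not in the labels, so p-values measure only how far single libraries lie from a straight line. The control and actinomycin D libraries held 4045420 to 6433503 reads at annotated ends, lowest at 8 h, and the gradient fractions 1663346 to 11575417, lowest in the fraction named 0. Ends carry positions in the mm9 build and no gene names. Loci are therefore named by chromosome, strand and position, a locus can join ends of neighbouring genes, the cell type could not be checked against marker genes, and sequence around the ends was not used here.

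The 650 loci lay on 20 chromosomes, 316 on the plus and 334 on the minus strand, and held 11.8% and 12.5% of the reads of control 1 and control 2. The first and middle ends were a median of 151.5 nt apart (quartiles 49.3 and 507) and the middle and last ends 218 nt apart (50.3 and 777). From first to last end the loci spanned 44 to 3862 nt, with a median of 679.5 nt. Both neighbouring gaps were under 100 nt in 110 loci, only the first gap was in 152, only the second in 129, and neither in 259. The authors' own filter passed 1759 of the 1950 ends, and all 3 ends in 484 loci.

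Use was highest at the last end of a locus and lowest at the first. In control 1 the median share of a locus's reads was 18.5% at the first, 23.1% at the middle and 31.4% at the last end, and in control 2 it was 16.5%, 22.3% and 32.5%. The spread over loci was wide, with quartiles of 8.74% and 66.3% for the last end in control 1. The first end was the highest of the 3 in 173 and 170 loci of control 1 and control 2, the middle end in 209 and 210, and the last end in 268 and 270. Between the 2 controls the share of an end differed by a median of 2.03 to 2.40 percentage points for the 3 positions, with an SD of 5.39 to 6.09. The medians of the 3 positions differed from each other by more than the median of any 1 position differed between the controls, which was 1.99 points for the first, 0.816 for the middle and 1.18 for the last end.

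**Figure D1:**
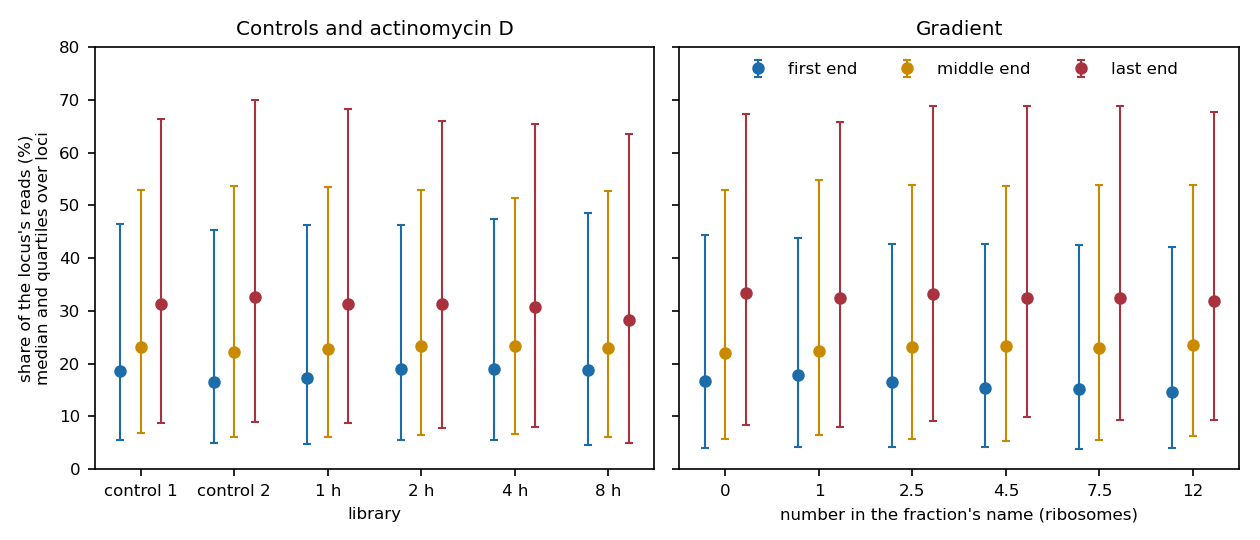
Share of a locus's reads at the first, middle and last end, in percent, as the median (point) and quartiles (bars) over loci with reads, in the 2 controls, at 1, 2, 4 and 8 h of actinomycin D and in the 6 gradient fractions. These are 650 loci, except 647 at 8 h and 649 in the fraction named 0. The last end has the highest median in each of the 12 libraries, between 28.3% and 33.3%, and the quartiles of the 3 positions overlap throughout.

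All 6 possible orders of the 3 ends occurred. Among loci with the same strict order in both controls, 114 had last over middle over first, 104 last over first over middle, 85 middle over last over first, 84 first over middle over last, 79 middle over first over last and 60 first over last over middle. The last end exceeded the first in both controls in 358 loci and was below it in both in 250. The same end was highest in both controls in 613 of 650 loci (94.3%), of which it was the first in 161, the middle in 195 and the last in 257. One end took 80% or more of the reads in both controls in 213 loci, most often the last (100 loci), then the middle (68) and the first (45). Even use was rare: all 3 ends reached 20% in both controls in 28 loci.

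Use differed with the spacing of the ends. Where only the last 2 ends were under 100 nt apart, the last end had a median of 44.2% and 45.4% of the reads in control 1 and control 2, above the 17.4% and 16.9% of the middle end. Where only the first 2 were close, the middle end had the highest median, 28.9% and 31.3%, and was the highest end in 59 and 61 of 152 loci, beside 51 and 49 for the isolated last end. With both gaps wide the last end led with 33.2% and 35.5%, over 19.3% and 19.4% at the middle end. In both kinds of locus with 1 close pair, the downstream end of that pair had the highest median.

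The loci with the most reads were each dominated by 1 end. On chromosome 2 (plus strand), ends at 13504286, 13504405 and 13504452 had 73, 2417 and 50505 reads in control 1 and 19, 2344 and 45424 in control 2, so the last end held 95.3% and 95.1%. On chromosome X (minus strand), ends at 163645893, 163645220 and 163645025 had 84, 3 and 39804 reads in control 1 and 25, 1 and 56558 in control 2. On chromosome 4 (minus strand), the last of the ends at 57956714, 57956655 and 57956632 held 91.2% and 92.1% in the controls. These 3 loci were dominated by the last end in both controls. On chromosome 4 (plus strand), the first of the ends at 116372117, 116372603 and 116373430 held 97.7% and 98.4%, and on chromosome 14 (plus strand), the first of the ends at 25315077, 25315344 and 25316181 held 95.6% and 96.7%. On chromosome 6 (plus strand), the middle of the ends at 4490965, 4491008 and 4491495 led with 66.4% and 80.2%.

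A few highly used loci shared their reads more evenly. On chromosome 15 (minus strand), ends at 31520658, 31520637 and 31520569, each close to the next, held 36.1%, 45.5% and 18.4% in control 1 and 36.4%, 45.0% and 18.6% in control 2. The order of these 3 shares was kept in each of the 12 libraries, with the middle end between 43.9% and 46.9%. On chromosome 17 (minus strand), ends at 23961795, 23961771 and 23961710 held 27.7%, 37.7% and 34.6% in control 1 and 28.0%, 39.3% and 32.7% in control 2. On chromosome 11 (plus strand), ends at 68718034, 68718059 and 68718082 lay as close together, but the first held 91.1% and 90.1%. Close spacing thus went with even shares in some loci and with 1 dominant end in others.

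After transcription was blocked, the median read ratio of last to first end was lower from 2 h on than in either control, and that of middle to first end was lower at each time. The log2 ratio of last to first reads (after adding 0.5 to each) had a median of 0.69 and 0.75 in control 1 and control 2, then 0.70, 0.57, 0.52 and 0.41 at 1, 2, 4 and 8 h. For middle against first it was 0.25 and 0.32 in the controls, then 0.20, 0.24, 0.10 and 0.11. For last against middle it was 0.071 and 0.093 in the controls, then 0.093, 0.23, 0.19 and 0.00, with no steady course. In loci with 100 or more reads at the ends compared, the log2 ratio of last to first was a median of 0.30 lower at 8 h than in the controls, with an SD of 1.36 over 380 loci. The same ratio differed between control 1 and control 2 with an SD of 0.72 and a median of -0.08. Single loci thus lay in both directions, with a wider spread at 8 h than between the controls. The 8 h library held fewer reads than either control (4045420 against 5843403 and 6433503). The 100 reads were a sum over the 6 libraries, so an end could have few reads at 8 h. Counting error was not separated from this spread.

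**Figure D2:**
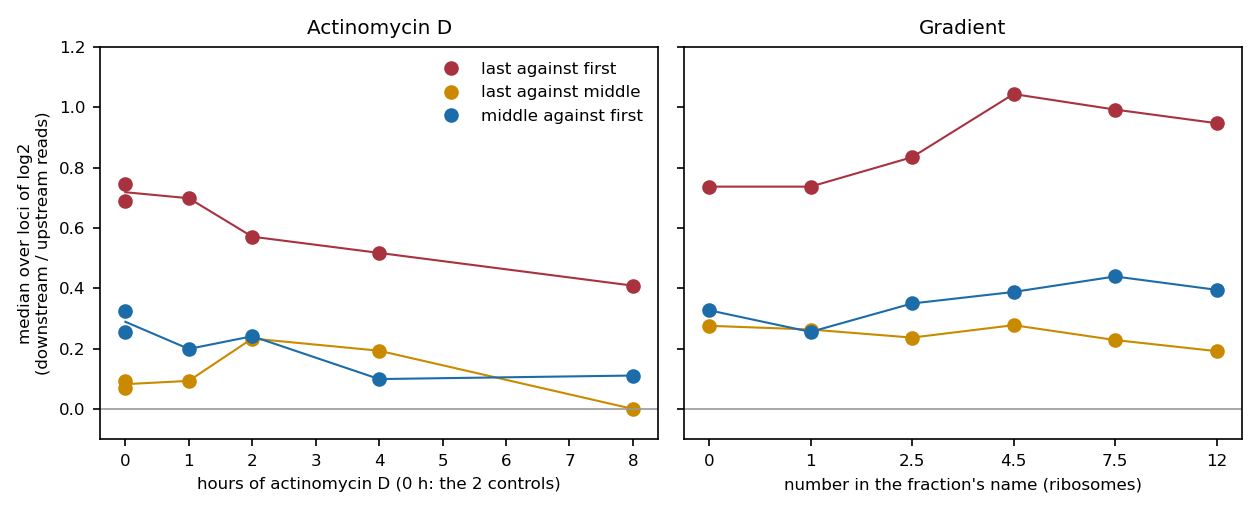
Median over the 3-end loci of the log2 ratio of downstream to upstream reads, for last against first, last against middle and middle against first, by hours of actinomycin D (left, the 2 controls at 0 h, the line through their mean) and by gradient fraction (right). The last-to-first ratio is lowest at 8 h, at 0.41, and highest in the fraction named 4.5, at 1.04.

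Each pair of ends of 1 locus was then tested for a different slope on hours, with edgeR's quasi-likelihood test and Benjamini-Hochberg adjustment over the 15086 pairs of the whole table. The slope difference is that of the downstream minus the upstream end, in log2 per h, and library terms in the model make it independent of how libraries are scaled. A faster fall means a lower slope, whether or not the end itself lost reads. For last against first, 16 of 650 pairs were called with a faster fall of the last end, where 1.80% of all pairs were called in that direction, and 4 with a slower fall, where 0.636% of all pairs were. For last against middle the counts were 12 and 5 of 650, and for middle against first 8 and 4 of 650. The edgeR shares, from 1.23% to 2.46% for a faster fall and from 0.615% to 0.769% for a slower fall, lay near those of all pairs. DESeq2 called more, with 33 and 7 for last against first, 19 and 9 for last against middle and 22 and 6 for middle against first. No DESeq2 share over all pairs is given here, so these counts cannot be set against all pairs. In 2-end loci, 42 of 1662 pairs were called with a faster and 4 with a slower fall of the downstream end. The 3 pairs of a locus share ends and are not independent.

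The median slope difference was -0.042 log2 per h for last against first, -0.019 for last against middle and -0.015 for middle against first, beside -0.022 in 2-end loci and -0.019 over all pairs. The last end had the lower slope in 60.9% of loci for last against first, beside 55.4% over all pairs. A single pair had a median 95% interval of 0.206 log2 per h to either side, so most differences of the size of the medians were not detectable. At an unadjusted p under 0.05, 109 of 650 last-against-first pairs had a faster and 49 a slower fall of the last end. Over all 15086 pairs these counts were 1978 and 1102. By distance, the median of last against first was -0.010 in the 71 loci whose outer ends were under 100 nt apart, -0.042 in the 202 at 100 to under 500 nt and -0.054 in the 377 with 500 nt or more. The size of the difference, without its sign, had medians of 0.074, 0.12 and 0.12 in these groups. Middle against first went the other way over the same distances, with medians of -0.027, -0.0076 and 0.00067. Neither last against middle (-0.013, -0.0070 and -0.055) nor the 2-end loci (-0.022, -0.016 and -0.027) had a steady order by distance.

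**Figure D3:**
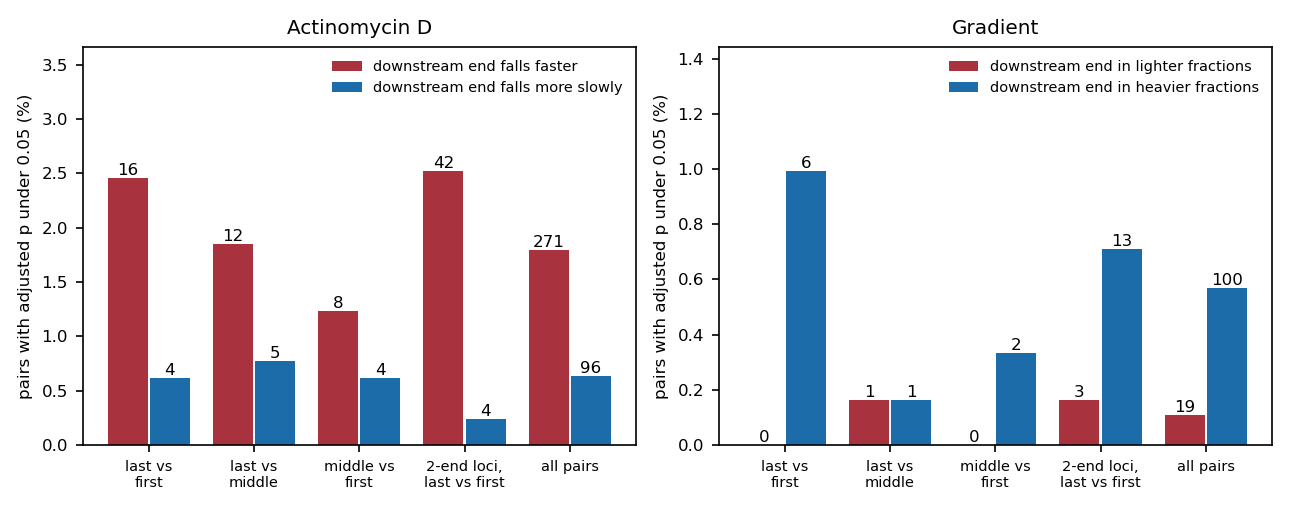
Percent of pairs of ends with an adjusted p under 0.05 (edgeR), by pair type, with the number of pairs above each bar, after actinomycin D (left) and over the gradient (right). The 16 last-against-first pairs with a faster fall of the last end and the 6 with the last end in heavier fractions are the largest counts of the 3-end loci.

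The 49 called pairs lay in 38 loci, of which 28 had 1 called pair, 9 had 2 and 1 had 3. The calls rested on the longest treatment: without the 8 h library edgeR called 0 of the 49, of which 41 had an unadjusted p under 0.05, and the 18 pairs named by the rule had adjusted p of 0.0927 to 0.65. Without the 4 h library 5 were still called, without control 2 there were 6, without 1 h 13, without 2 h 20 and without control 1 31. All 49 kept their direction in each of these fits. The fit that selected the pairs shares all but 1 library with each of these, so the kept direction is no separate evidence. In 27 of the 36 pairs with a faster downstream fall, the upstream end was the lower of both ends in the controls, and in 26 it held 10% or less of the locus's reads in both controls. An end that reached the minimum only with the 8 h library, and so passed through its own high value, was part of 4 called pairs. In the 617 loci without such an end, 31 pairs were called with a faster downstream fall, and in 21 of them the upstream end held 10% or less. Among all 1950 pairs of the 3-end loci the upstream end was the lower in 1005 and held 10% or less in 651. Most calls of this direction thus compared a minor upstream end with a larger downstream end. The controls that give these shares are also the 0 h points of the slopes, so the 2 measures are not independent and this is a description.

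In a locus on chromosome 11 (plus strand) the leading end was exchanged for another. Its last end at 70267225 had 170 and 187 reads in the controls, then 96, 81, 32 and 17 at 1, 2, 4 and 8 h. Its middle end at 70267038 had 75 and 89 reads in the controls, then 110, 151, 105 and 98, and its first end at 70267014 had 20 and 21, then 19, 34, 37 and 28. The last end was the highest in both controls and the lowest at 8 h, at 11.9% of the reads against 64.2% and 63.0% in the controls. It fell faster than the middle end by 0.47 ± 0.08 log2 per h (SE, slope difference -0.47, edgeR adjusted p = 0.0262), a call that passed in 5 of 9 alternatives. The 3 half-lives in the authors' deposited table, which match a fit in hours, were 17.2, 9.66 and 1.36 h for the first, middle and last end.

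In a locus on chromosome 4 (minus strand) both downstream ends fell faster than the first. The middle end at 109333481 had 567 and 691 reads in the controls, then 492, 225, 79 and 34 at 1, 2, 4 and 8 h. The last end at 109333364 had 18 and 31 in the controls, then 12, 5, 0 and 0, and the first end at 109334327 had 18 and 19, then 14, 17, 12 and 17. The first end kept nearly the same count while both downstream ends lost reads, so that its share was 33.3% at 8 h, against 2.99% and 2.56% in the controls. The slope difference was -1.23 ± 0.23 log2 per h for last against first (SE, edgeR adjusted p = 0.0335) and -0.53 ± 0.07 for middle against first (SE, edgeR adjusted p = 0.00943). These calls passed in 3 of 8 and 8 of 9 alternatives. The locus had 51 reads in the 8 h library, and its authors' deposited half-lives were 8.08, 1.33 and 0.822 h from first to last.

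The middle end fell fastest in a locus on chromosome 2 (minus strand). The middle end at 84509851 had 36 and 33 reads in the controls, then 25, 13, 9 and 3 at 1, 2, 4 and 8 h. The first end at 84511473 had 78 and 79 reads, then 123, 122, 148 and 220, and the last end at 84509379 had 770 and 901, then 932, 764, 789 and 704. The middle end is low at each time after 1 h, and the first end is above both controls at each time. The slope difference was -0.65 ± 0.08 for middle against first (SE, edgeR adjusted p = 0.00943) and 0.43 ± 0.07 for last against middle (SE, edgeR adjusted p = 0.0214), and this was the locus with 3 called pairs. The named calls passed in 8 and 6 of 9 alternatives. Over the gradient the same locus had its first end at 4.67%, 2.91%, 1.05%, 3.34%, 15.8% and 25.8% of the reads from the fraction named 0 to that named 12, a difference that was not called.

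Several of the called pairs compared a rare upstream end with a dominant last end. On chromosome X (minus strand) the middle end at 163645220 had 3 and 1 reads in the controls, then 0, 7, 15 and 53, while the dominant last end at 163645025 had 39804 and 56558, then 62829, 64511, 70012 and 70867 (slope difference -0.55 ± 0.09, SE, edgeR adjusted p = 0.0208). Its first end took the same course, with 84 and 25 reads in the controls and 19, 146, 300 and 744 at 1, 2, 4 and 8 h. On chromosome 16 (minus strand) the first end at 91927158 had 4 and 0 reads in the controls, then 2, 6, 5 and 34, beside 742 and 789, then 935, 1097, 867 and 771 at the last end at 91925462 (-0.53 ± 0.09, SE, edgeR adjusted p = 0.0227). Without the 8 h library these rare ends had 26 and 17 reads, under the minimum of 30, so that they entered through the library in which they were highest, and both calls are given as a description. In both loci the rare end had more reads in control 1 than in control 2. On chromosome 4 (minus strand) the first end at 88365851 had 40 and 11 reads in the controls, then 7, 10, 11 and 17, while the last end at 88364196 had 956 and 1209, then 850, 358, 104 and 44 (-0.56 ± 0.13, SE, edgeR adjusted p = 0.0499). The chromosome 4 call passed in 3 of 9 alternatives. At the most used locus, on chromosome 2 (plus strand), the first end at 13504286 likewise had 73 and 19 reads in the controls and 9, 55, 101 and 206 after 1, 2, 4 and 8 h, 0.619% of the locus at most. Its middle and last ends kept their shares, 4.45% to 4.98% and 94.5% to 95.4% over these 6 libraries.

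Some called pairs lay close together. On chromosome 9 (minus strand) the last end at 75234566, 27 nt below the middle end at 75234593, had 28 and 29 reads in the controls, then 27, 15, 1 and 0, beside 108 and 93, then 109, 126, 45 and 13 at the middle end (slope difference -0.75 ± 0.17, SE, edgeR adjusted p = 0.0496). On chromosome 4 (plus strand) the middle end at 118809900, 50 nt below the first at 118809850, had 86 and 68 reads in the controls, then 54, 30, 8 and 0, beside 90 and 94, then 95, 69, 39 and 13 (-0.57 ± 0.12, SE, edgeR adjusted p = 0.0449). Both pairs had few reads left at 8 h, and each call passed in 2 of 9 alternatives. Of the 262 middle-against-first pairs under 100 nt apart, 4 were called, and of the 239 last-against-middle pairs that close, 5, each of the 9 with a faster downstream fall. These shares lie near the 1.80% of all pairs, and the 13 called of 624 pairs that close in 2-end loci all had a faster downstream fall as well.

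The opposite direction, a slower fall downstream, was called in 13 pairs. On chromosome 19 (plus strand) the last end at 36179243 had 176 and 288 reads in the controls, then 360, 240, 194 and 94, and the middle end at 36179104 had 220 and 290, then 258, 206, 88 and 19 (slope difference 0.30 ± 0.05, SE, edgeR adjusted p = 0.0262). The last end held 79.7% at 8 h, against 37.3% and 44.2% in the controls. On chromosome 7 (minus strand) the first end at 106988198 had 174 and 213 reads in the controls, then 226, 202, 95 and 24, while the middle end at 106987512 had 364 and 247, then 291, 376, 347 and 332 and the last end at 106987416 had 554 and 617, then 687, 575, 522 and 467. Both downstream ends fell more slowly than the first, by 0.40 ± 0.06 log2 per h for middle against first (SE, edgeR adjusted p = 0.02) and 0.33 ± 0.06 for last against first (SE, edgeR adjusted p = 0.0227). The first end held 2.92% at 8 h, against 15.9% and 19.8% in the controls. The chromosome 19 call passed in 5 of 9 alternatives, and the chromosome 7 calls in 6 and 5 of 9.

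On chromosome 8 (minus strand) the middle end at 90856210, dominant in the controls, had a lower slope than the last. It had 275 and 257 reads in the controls, then 263, 142, 79 and 34, and the last end at 90854498 had 22 and 35, then 37, 33, 31 and 24 (last against middle 0.36 ± 0.07, SE, edgeR adjusted p = 0.0347). On chromosome 13 (minus strand) the first end at 8971879 had 525 and 595 reads in the controls, then 571, 319, 139 and 44, and the middle end at 8971316 had 28 and 42, then 57, 74, 20 and 30 (0.40 ± 0.08, SE, edgeR adjusted p = 0.0342). On chromosome 16 (minus strand) the first end at 16313929 had 19 and 28 reads, then 16, 12, 3 and 1, and was called against the middle end at 16313481 (0.51 ± 0.11, SE, edgeR adjusted p = 0.0464) and the last end at 16312330 (0.49 ± 0.11, SE, edgeR adjusted p = 0.0449). On chromosome 15 (minus strand) the first end at 97873069 had 6 and 18 reads, then 5, 6, 2 and 0, against 467 and 1033, then 615, 640, 561 and 587 at the last end at 97871660. The chromosome 8 and 13 calls passed in 3 and 4 of 9 alternatives, and the chromosome 16 calls in 1 and 2 of 9. The chromosome 15 slope difference of 0.58 ± 0.13 (SE, edgeR adjusted p = 0.0456) did not pass the threshold in any of 8 alternatives, whose adjusted p lay between 0.0575 and 0.31.

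**Figure D4:**
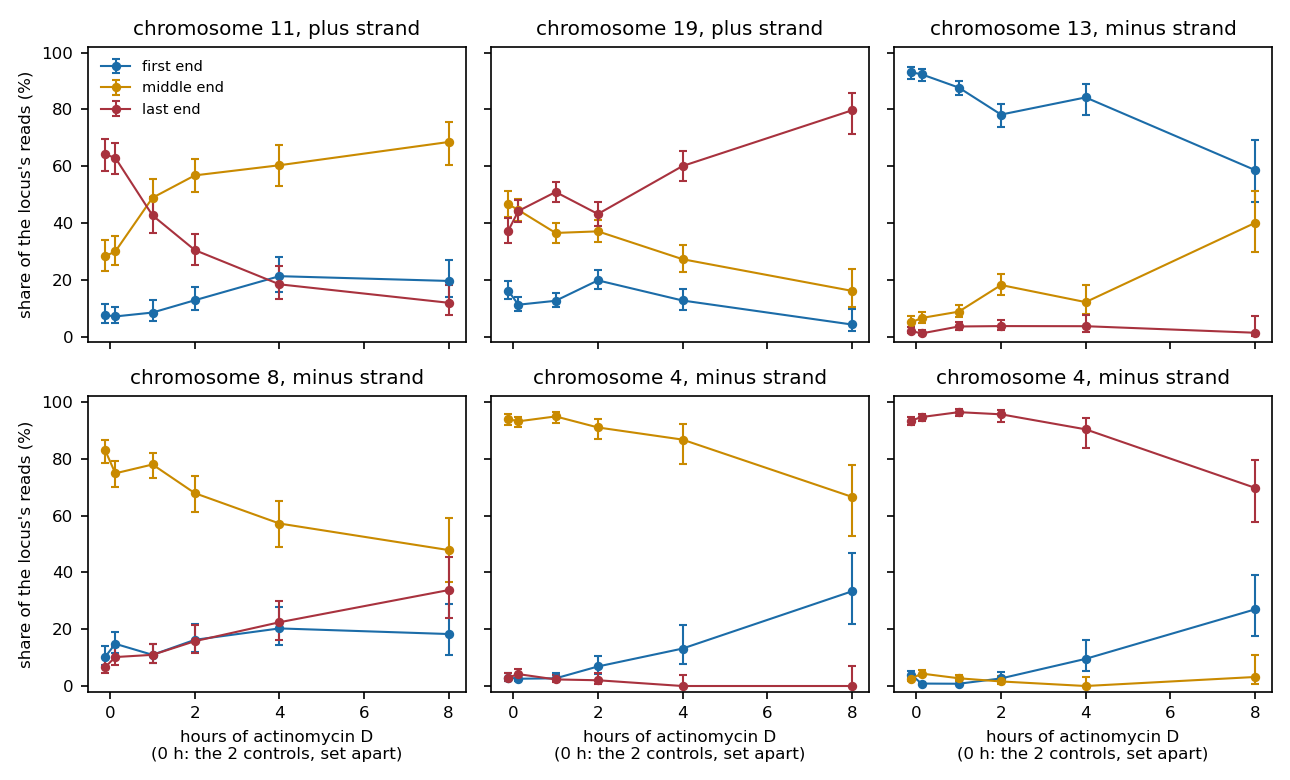
Share of the locus's reads at the first, middle and last end by hours of actinomycin D, with the 2 controls set side by side at 0 h, in the 6 named loci with a called pair whose shares differ most between 8 h and the controls. Bars are 95% Wilson intervals, which cover counting error only; the last end holds 11.9% at 8 h on chromosome 11 and 79.7% on chromosome 19.

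The middle end lay between first and last in a minority of loci, though more often than it lay above both or below both. In the deposited half-lives, which 591 loci have for all 3 ends, the middle end lay between first and last in 252 loci (42.6%), was the longest-lived in 165 and the shortest-lived in 174. The order first over middle over last was the most frequent, in 152 loci, and last over middle over first was found in 100. The medians in the authors' deposited table were 3.51 h for first, 3.48 h for middle and 3.28 h for last ends, within quartiles of about 2 to 6 h. In 356 of 610 loci (58.4%) the last end was listed as shorter-lived than the first, and the median difference in the authors' deposited values was -0.232 h, while the size of the difference had a median of 1.15 h. The longest and shortest half-life of a locus differed 2-fold or more in 227 of 591 loci (38.4%). This is a range over values given without an error, from 1 library per treatment time, and 12 of the 1950 ends lie at the upper limit of 50. It is no count of loci whose ends differ in decay, and neither are the 38 of 650 loci with a called pair. Pairs of these loci were called at shares near those of all pairs, and 0 of the 49 calls were left without the 8 h library. No share of loci with a call is given for other loci. These half-lives come from the same libraries as the slopes and are no separate evidence, and 66 of the 1950 ends have none.

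Relative to the whole library, more first than last ends were called rising after actinomycin D and more last than first ends falling. Of 650 first ends, 112 were called falling, where 26.2% of all ends were, and 157 rising, where 17.3% of all ends were (edgeR, slope on hours). Of the middle ends, 143 were called falling and 141 rising, and of the last ends 163 and 135. These counts include the 13 first, 15 middle and 6 last ends that reach the minimum only with the 8 h library. Such ends passed through their own high value, and the counts were not repeated without them, so the contrast between positions is a description. The median slopes were 0.012 log2 per h for first, 0.0057 for middle and -0.019 for last ends, beside -0.036 for all ends. These slopes are relative to the library, and fewer cells and less RNA per cell cannot be told apart in such bulk libraries. With the factors of the file header, which move the median slope of all ends to -0.187 and those of first, middle and last ends to -0.139, -0.144 and -0.17, the counts falling and rising were 260 and 32 for first, 288 and 26 for middle and 328 and 12 for last ends, so that rising calls and the sign of the first and middle medians depend on the scaling while the order of the positions was the same.

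Across the gradient the positions differed little. The median log2 ratio of last to first reads was 0.74, 0.74, 0.83, 1.04, 0.99 and 0.95 from the fraction named 0 to that named 12, and that of middle to first was 0.33, 0.26, 0.35, 0.39, 0.44 and 0.39. The ratio of last to middle was 0.28, 0.26, 0.24, 0.28, 0.23 and 0.19, with no rise. Ends needed 30 or more reads over the 6 fractions, and a positive slope difference, in log2 per fraction step, places the downstream end in heavier fractions. Of 603 last-against-first pairs, 6 were called with the last end in heavier fractions, where 0.571% of all 17526 pairs were called, and 0 with it in lighter fractions, where 0.108% of all pairs were (edgeR, adjusted over all pairs). At an unadjusted p under 0.05 these counts were 69 and 22 of 603, beside 1362 and 599 of all 17526 pairs. DESeq2 called 4 and 0, for which no share over all pairs is given here.

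For middle against first, 2 of 600 pairs were called with the middle end heavier and 0 with it lighter (unadjusted 45 and 16), and for last against middle 1 and 1 of 615. The unadjusted counts over all 17526 pairs were 1362 and 599. DESeq2 called 0 middle-against-first pairs in either direction and 1 last-against-middle pair in each. The median slope differences were 0.035 for last against first, 0.015 for last against middle and 0.012 for middle against first, beside 0.011 in 2-end loci and 0.018 over all pairs. A single pair's 95% interval reached a median of 0.236 to either side. The last-against-first median was 0.0062 where the outer ends were under 100 nt apart, 0.027 at 100 to under 500 nt and 0.046 at 500 nt or more. In 2-end loci these medians were 0.0064, 0.0039 and 0.036, so the higher value at 500 nt or more was not particular to 3-end loci. The last end had the lower slope in 41.3% of loci, beside 46.0% in 2-end loci and 44.8% over all pairs. The 10 called pairs lay in 9 loci. Of these pairs, 6 were still called without the fraction named 0, 3 without that named 1 and 9 without 2.5. Without 4.5 there were 7, without 7.5 3 and without 12 6. All kept their direction, but in fits that share all but 1 library with the fit that selected them, so this is no separate evidence.

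The largest gradient difference was in a locus on chromosome 4 (minus strand) with ends at 118972827, 118972774 and 118972604. From the fraction named 0 to that named 12 the last end had 6, 18, 20, 97, 116 and 59 reads, the middle end 64, 29, 3, 4, 3 and 0, and the first end 83, 52, 29, 8, 3 and 5. The last end held 3.92% of the reads in the lightest and 92.2% in the heaviest of these fractions, while both upstream ends were concentrated in the fractions named 0 and 1. The slope difference was 2.38 ± 0.17 log2 per fraction for last against middle (SE, edgeR adjusted p = 1.71e-06) and 1.94 ± 0.19 for last against first (SE, edgeR adjusted p = 7.20e-05). Over the alternatives the first p ranged from 1.12e-12 to 0.000842. The second passed in 9 of 10 alternatives and missed with the numbers in the fraction names as covariate, with an adjusted p of 0.167. The authors' deposited ribosomes per mRNA were 1.10, 0.537 and 6.23 for first, middle and last. In the actinomycin D experiment the first, middle and last end had 53, 50 and 24 reads at 8 h, against 31, 14 and 29 in control 1 and 49, 16 and 28 in control 2, differences that were not called.

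A locus on chromosome 15 (plus strand), with ends at 80087307, 80087773 and 80087969, was the one locus called in both experiments. Its last end had 5293 and 7736 reads in the controls, then 3318, 1613, 774 and 254 at 1, 2, 4 and 8 h, and its first end 157 and 179, then 139, 195, 156 and 115. The first end held 28.3% at 8 h, against 2.76% and 2.23% in the controls, and the slope difference of last against first was -0.53 (edgeR adjusted p = 0.00943). Over the gradient the last end held 90.9%, 92.0%, 95.5%, 96.6%, 96.3% and 96.8% from the lightest to the heaviest fraction and the first end 3.80%, 4.83%, 3.05%, 1.73%, 1.29% and 0.942%. That slope difference was 0.51 ± 0.07 per fraction (SE, edgeR adjusted p = 0.00148) and passed in all 10 alternatives, with an adjusted p of at most 0.0184. In the full fits the last end thus fell faster and lay heavier than the first. The decay call, like all 49 calls after actinomycin D, was lost without the 8 h library. The authors' deposited half-lives, from the same libraries, were 5.98, 0.951 and 0.959 h from first to last.

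The other named gradient calls were smaller shifts. On chromosome 4 (plus strand) the middle of the ends at 14841243, 14842406 and 14842643 held 45.2%, 38.4%, 42.4%, 54.0%, 66.3% and 65.7% from light to heavy, and the first 36.9%, 55.8%, 47.2%, 29.5%, 23.8% and 21.8% (slope difference 0.47 ± 0.09, SE, edgeR adjusted p = 0.0166). On chromosome 12 (plus strand) the middle of the ends at 33535958, 33536471 and 33538232 held 14.7%, 21.6%, 28.1%, 26.6%, 27.4% and 36.2%, and the first 71.4%, 71.8%, 61.8%, 62.6%, 61.3% and 54.2% (0.28 ± 0.06, SE, edgeR adjusted p = 0.0417). In both the middle end gained over the first toward the heavy fractions. On chromosome 11 (minus strand) the last of the ends at 116712159, 116711950 and 116711228 held 92.3% in the lightest and 79.5% in the heaviest fraction, and its slope was lower than that of the middle end (-0.33 ± 0.06, SE, edgeR adjusted p = 0.0145). These 3 pairs passed in 5, 3 and 6 of 10 alternatives. The first was lost without the fractions named 1, 7.5 or 12, the second without 0, 1, 4.5, 7.5 or 12, and the third without 0, 1 or 7.5. The remaining 4 called pairs, all last against first, had slope differences of 0.30 to 0.41.

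**Figure D5:**
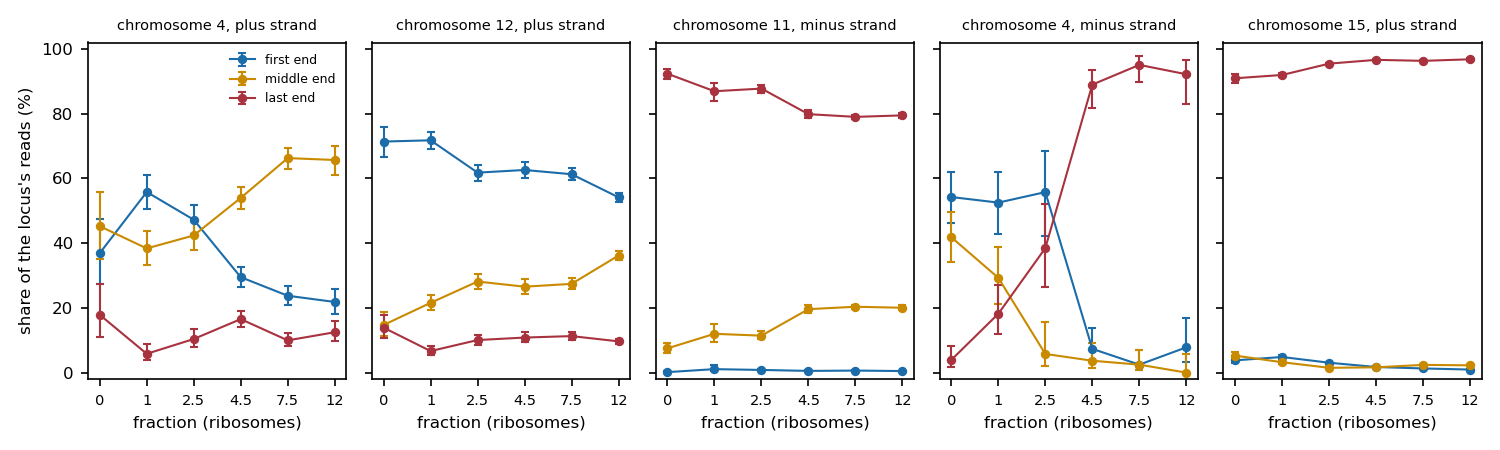
Share of the locus's reads at the first, middle and last end across the 6 gradient fractions, labelled by the ribosome number in the fraction's name, in the 5 named loci with a called pair. Bars are 95% Wilson intervals for counting error; on chromosome 4 (minus strand) the last end holds 3.92% in the fraction named 0 and 92.2% in that named 12.

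Where no pair was called in a direction, the 2 pairs with the smallest p were as follows. For last against first in the lighter direction, the ends at 79861555 and 79860742 on chromosome 14 (minus strand) differed by -0.35 ± 0.08 per fraction (SE, edgeR adjusted p = 0.0554, 0.0238 to 0.305 over the alternatives) and those at 67278988 and 67280449 on chromosome 3 (plus strand) by -0.37 ± 0.09 (SE, edgeR adjusted p = 0.0816). For middle against first, the ends at 39052317 and 39050436 on chromosome 2 (minus strand) differed by -0.37 ± 0.09 (SE, edgeR adjusted p = 0.0837) and those at 48207352 and 48207238 on chromosome 4 (minus strand) by -0.26 ± 0.08 (SE, edgeR adjusted p = 0.172). None of these 4 passed the threshold.

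Single ends, set against their library, were called with a slope toward light fractions in 34 of 616 first, 37 of 629 middle and 28 of 635 last ends, where 4.26% of all ends were. Toward heavy fractions 0 first, 4 middle and 6 last ends were called, where 0.536% of all ends were (edgeR). At an unadjusted p under 0.05 that count was 57 for first, 54 for middle and 51 for last ends, for which no share over all ends was computed. DESeq2 called 6 first ends toward heavy fractions, also without a share over all ends. With the factors of the file header, which move the median slope of all ends to 0.489 per fraction, against 0.048 with TMM scaling, the counts were 4, 7 and 4 toward light and 234, 262 and 262 toward heavy fractions, so the direction of single ends depends on the scaling. The ribosomes per mRNA of the authors' deposited table, the mean of the fraction names weighted by scaled reads, had medians of 6.46 for first, 6.45 for middle and 6.44 for last ends.

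Within a locus the ribosome numbers were close. The highest and lowest of the 3 ends differed by a median of 0.578 ribosomes, beside an SD of 1.63 between the means of loci, and differed 2-fold or more in 8 of 650 loci. The last end had the higher value than the first in more loci than not, being lower in 274 of 650 (42.2%), with a median difference of 0.117 in the authors' deposited values. The middle end lay between first and last in 252 of 650 loci (38.8%), was the highest in 202 and the lowest in 196.

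Where the same end had the most reads in both controls, it seldom changed. This held for 613 of 650 loci (94.3%), and loci in which the controls themselves differed were left out. Of the loci with the same highest end in both controls, 23 of 613 had another highest end at 1 h, 51 of 613 both at 2 h and at 4 h, and 75 of 611 after 8 h. At 8 h the new highest end lay upstream of the old one in 48 loci and downstream in 27. A last end can be replaced only from upstream and a first end only from downstream. In both controls the last end was highest in 257 loci, the middle in 195 and the first in 161. By 8 h the highest end had moved from last to first in 18 loci and from last to middle in 13. It had moved from first to middle in 9, from first to last in 8, from middle to first in 17 and from middle to last in 10. Among the 550 loci with 20 or more reads in the 8 h library the new highest end lay upstream in 31 and downstream in 21. In the gradient, the highest end differed from that of the controls in 62 of 612 loci in the fraction named 0 and in 43 of 613 in that named 12, where it lay upstream in 14 and downstream in 29.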

How the data were processed

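Reads had been aligned by the authors with Bowtie (submitters' processing notes), in a version not given in the sources used here, and their deposited table has raw counts per annotated poly(A) site, at mm9 positions, per the file headers. The deposited table also holds a half-life and a number of ribosomes per mRNA for each site. The half-life's unit is not stated in the headers; for 1869 of 1872 ends its rate was, within 0.01 per h, that of an exponential fit to hours with 0.1 per h added, so it was read in hours. Ribosomes per mRNA was recomputed for 1950 of 1950 ends from the fraction names 0, 1, 2.5, 4.5, 7.5 and 12, weighted by scaled counts; these columns were taken as fractions 1 to 6 by rising number. Per-sample columns left unused numbered 0.

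Slopes were fitted with edgeR 4.0.16 (robust quasi-likelihood test, R 4.3.3) on all ends, or on all pairs of ends of 1 locus, with 30 or more counts, with hours (controls at 0) or fraction number as covariate; single ends used TMM scaling. Adjusted p under 0.05 was called. The steps were tested on simulated data. Alternatives were DESeq2 1.42.0, other minimum counts, scalings and linking distances, and leaving out each library. Shares have 95% Wilson intervals in figures, which cover counting error only. The planned search for poly(A) signal sequences was not run, as no mm9 sequence was used here. The members and named loci were chosen with earlier results of these data known. Named are the 6 loci with most control reads, the 3 most read with each end highest, per pair type and direction the 3 largest called slope differences after actinomycin D and 2 over the gradient, or the 2 smallest p where none was called, and the locus called in both experiments.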

Additional observations from a re-analysis of the deposited data

How the results depend on the processing

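Libraries could not be paired with each other, because each time point and fraction has 1 library and only the controls carry replicate numbers. The ends of a locus were compared within libraries. Leaving out 1 library at a time, called pairs after actinomycin D (faster, then slower downstream fall) ranged over 0 to 6 and 0 to 3 for middle against first, 0 to 17 and 0 to 4 for last against middle, and 0 to 17 and 0 to 3 for last against first, with 0 in each without 8 h. Over the gradient (lighter, then heavier) they ranged over 0 to 1 and 0 to 4, 0 to 1 and 1 to 4, and 0 to 2 and 2 to 7. Median slope differences ranged from -0.034 to -0.012, -0.025 to -0.012 and -0.061 to -0.038 per h, and from 0.0075 to 0.016, 0.0075 to 0.023 and 0.021 to 0.056 per fraction. First ends called falling and rising after actinomycin D ranged over 72 to 114 and 118 to 156, middle ends over 105 to 140 and 101 to 139, and last ends over 108 to 161 and 86 to 133. Over the gradient the ranges were 10 to 51 and 0 to 26, 8 to 52 and 0 to 32, and 7 to 44 and 0 to 31. Control shares ranged over 16.5 to 18.5% for first, 22.3 to 23.1% for middle and 31.4 to 32.5% for last ends.

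DESeq2 called 22 middle-against-first pairs with a faster fall, 19 and 9 last-against-middle pairs and 33 and 7 last-against-first pairs, and over the gradient 0 middle-against-first pairs as heavier and 6 first ends as rising. A minimum of 60 gave 8 last-against-middle pairs with a slower fall and 26 last-against-first pairs with a faster one, 2 middle ends rising over the gradient, control shares of 19.5% for first and 26.1% for middle ends, and 437 loci. A minimum of 10 in the fit gave 4 middle-against-first pairs with a faster fall, 3 last-against-middle pairs with a slower one, 10 and 2 last-against-first pairs, 2 last-against-first pairs as lighter, and 1 first and 7 middle ends rising over the gradient. A minimum of 100 gave shares of 20.4% and 26.7% for first and middle ends and half-lives in the authors' deposited values of 4.04, 3.72 and 3.65 h. Linking within 1000 nt gave 628 loci, 2 last-against-middle pairs with a slower fall, 1 middle-against-first pair as lighter and 0 as heavier, and a middle share of 25.6%. With the numbers in the fraction names as covariate 1 middle-against-first pair was lighter and 0 heavier, 0 last-against-middle pairs were lighter and 1 last-against-first pair heavier. Header factors gave 260 and 32, 288 and 26, and 328 and 12 falling and rising ends after actinomycin D and 4 and 234, 7 and 262, and 4 and 262 over the gradient. Shares over all pairs and all ends are not given for these alternatives. The cause of these differences was not tested. In the 617 loci whose ends reach the minimum without 8 h, an alternative chosen after seeing the data, no count of called pairs moved by over 1.5 times. Single ends were not recounted in these loci. No median slope difference and no named pair reversed its sign under the alternatives run, but the median slopes of single first and middle ends, above 0 with TMM, were below 0 with header factors. The named pairs were selected in the main fit to the same libraries, so their kept sign is no separate evidence.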
